A study of Mus musculus with 6 samples.

Results

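The 44 genes described here encode the machinery of mitosis: the cyclins and kinases that start it, the spindle checkpoint, the kinetochores, the motors and microtubule proteins of the spindle, the condensins that compact chromosomes and the proteins of cytokinesis. They were chosen by name as members of this machinery, and all 44 were found among the 24956 gene rows of the deposited table. RNA came from flow-sorted microglia, the macrophages that live in the brain, of 3XTg-AD mice aged 7 months. This strain carries human APP and tau transgenes with mutations of familial disease, driven by the neuronal Thy1 promoter, on a background with a mutant presenilin-1 knock-in, and both groups share these alleles. One group of 3 libraries came from mice given 25 µg of an antibody against NK1.1, a receptor on natural killer (NK) cells that the antibody depletes, every 4 days for 4 weeks, and the other group of 3 libraries from mice given an isotype control antibody on the same schedule. The labels do not say whether a library is 1 animal or a pool, so p-values measure the spread between these libraries, and the gate of the sort is not given in the sources used here. All changes below are anti-NK1.1 against isotype.

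Mitotic genes are transcribed late in the cell cycle, and their messages are low or absent in cells that have left it. Adult microglia divide rarely and renew themselves slowly, while the precursors of neutrophils and other blood cells divide often, so in sorted brain myeloid cells these transcripts report on whichever cells in the gate are cycling. In bulk samples, fewer cycling cells and less mitotic RNA per cell cannot be told apart.

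The promoters of these genes share short sequence elements that are known for late cell cycle timing. The cell cycle genes homology region (CHR, TTTGAA) is bound by the DREAM and MuvB complexes, which repress such genes in resting cells and activate them in dividing cells, and the CCAAT box is bound by the activator NF-Y. Promoters of 250 bases before to 50 bases after the start were taken from RefSeq (GRCm38.p6), which held 38 promoters for 36 of the 44 genes, and motifs were searched on both strands. The CHR was found in 76.3% of the 38 promoters against 17.9% of all 32851 promoters in the table, the CCAAT box in 78.9% against 37.4%, and both together in 68.4% against 6.95%. The E2F form TTCCCGC, an element of genes of the earlier replication phase, was found in 2.63% of the mitotic promoters against 4.6% of all promoters and 35.6% of 45 promoters of DNA replication genes. A CHR and a CCAAT box shared bases in 1 of the 38 mitotic promoters. A match is a description of the letters and not evidence of binding.

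The promoters of 5 genes are shown because they hold a CHR within 120 bases before to 30 bases after the start and belong to the genes with the highest level per kilobase of transcript among those that do. They are printed 5′ to 3′ in the direction of the gene over that window, with the CHR and the CCAAT boxes of either strand in capitals (TTTGAA or TTCAAA, and CCAAT or ATTGG).
Ccnb2: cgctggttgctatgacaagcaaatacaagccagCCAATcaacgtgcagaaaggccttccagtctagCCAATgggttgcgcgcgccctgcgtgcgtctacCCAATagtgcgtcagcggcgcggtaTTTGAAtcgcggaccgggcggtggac
Ube2c: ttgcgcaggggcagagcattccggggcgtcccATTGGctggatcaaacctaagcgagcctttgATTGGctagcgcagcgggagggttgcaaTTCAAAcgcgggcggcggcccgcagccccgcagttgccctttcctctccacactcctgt
Cdc20: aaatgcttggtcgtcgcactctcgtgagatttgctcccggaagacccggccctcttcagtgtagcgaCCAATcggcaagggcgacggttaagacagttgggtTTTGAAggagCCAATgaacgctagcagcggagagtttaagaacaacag
Spc25: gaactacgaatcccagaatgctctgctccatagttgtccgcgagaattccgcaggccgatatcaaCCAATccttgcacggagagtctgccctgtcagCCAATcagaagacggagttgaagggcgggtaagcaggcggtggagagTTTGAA
Cenpa: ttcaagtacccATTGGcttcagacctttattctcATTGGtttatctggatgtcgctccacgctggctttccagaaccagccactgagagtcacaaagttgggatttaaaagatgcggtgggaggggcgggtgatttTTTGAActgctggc
The windows lie on GRCm38.p6, with Ccnb2 at chr9:70421525-70421674 on the minus strand, Ube2c at chr2:164769809-164769958 on the plus strand, Cdc20 at chr4:118437314-118437463 on the minus strand, Spc25 at chr2:69206184-69206333 on the minus strand and Cenpa at chr5:30666766-30666915 on the plus strand. Each held 1 CHR, and the first base of the CHR lay 29 bases before the start in Ube2c and 18 bases before it in Cdc20, and after the start by 4 bases in Ccnb2, 16 in Cenpa and 24 in Spc25. All of these windows also held CCAAT boxes, 3 in Ccnb2 and 2 in each of the others. Among the 27 members with a CHR anywhere in the 300 bases the median log2 change was -1.20 (range -4.21 to -0.33). For the 9 with a promoter but no CHR it was -1.03 (range -2.97 to -0.20). For the 8 members with no promoter found it was -0.72 (range -1.42 to -0.28). The differences between these groups were not tested.

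The libraries held between 26.9 M and 36.1 M gene counts each. Levels are given in CPM, which puts the counts of all libraries on one scale by their totals and by TMM normalisation factors (trimmed mean of M values), and 3 counts were worth 0.0784 to 0.120 CPM. Means are given ± SD and log2 changes ± SE, over 3 libraries per group. All 10 microglial markers examined were present in every library, with P2ry12 between 2683 and 5058 CPM and Tmem119 between 1649 and 3473 CPM. Klrb1c, which encodes NK1.1, had 1.40, 1.40 and 2.09 CPM with isotype and 0, 0 and 0.518 CPM with anti-NK1.1. Transcripts of neutrophils were abundant throughout, and their values stand beside those of the mitotic genes below.

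All 44 mitotic genes lay lower on average in the anti-NK1.1 libraries, and none of them passed the threshold. Each had a log2 change below 0 (44 of 44, against 49.1% of the 14520 tested genes), with a median of -1.08 against 0.01 over all tested genes and a range from -4.21 for Ttk to -0.20 for Cks2. A log2 change below -1 was seen for 25 members (8.92% of tested genes). For 14 members every anti-NK1.1 library lay below every isotype library (7.59% of tested genes), and for none did every anti-NK1.1 library lie above (7.73% of tested genes). The quasi-likelihood test of edgeR called 0 of the 44 at an adjusted p under 0.05, as it called 0% of all genes, with adjusted p between 0.727 and 0.924. At an unadjusted p under 0.05 there were 8 members lower (3.8% of tested genes) and 0 higher (2.74%). DESeq2 on the same genes also called 0 of the 44 (it called 0.574% of tested genes, and 0.242% lower). With DESeq2's own filtering in place of edgeR's, an analysis added after the data were seen, 2 members were called lower, Kif23 (adjusted p = 0.0155) and Ttk (adjusted p = 0.0382), against 0.366% of genes.

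**Figure D1:**
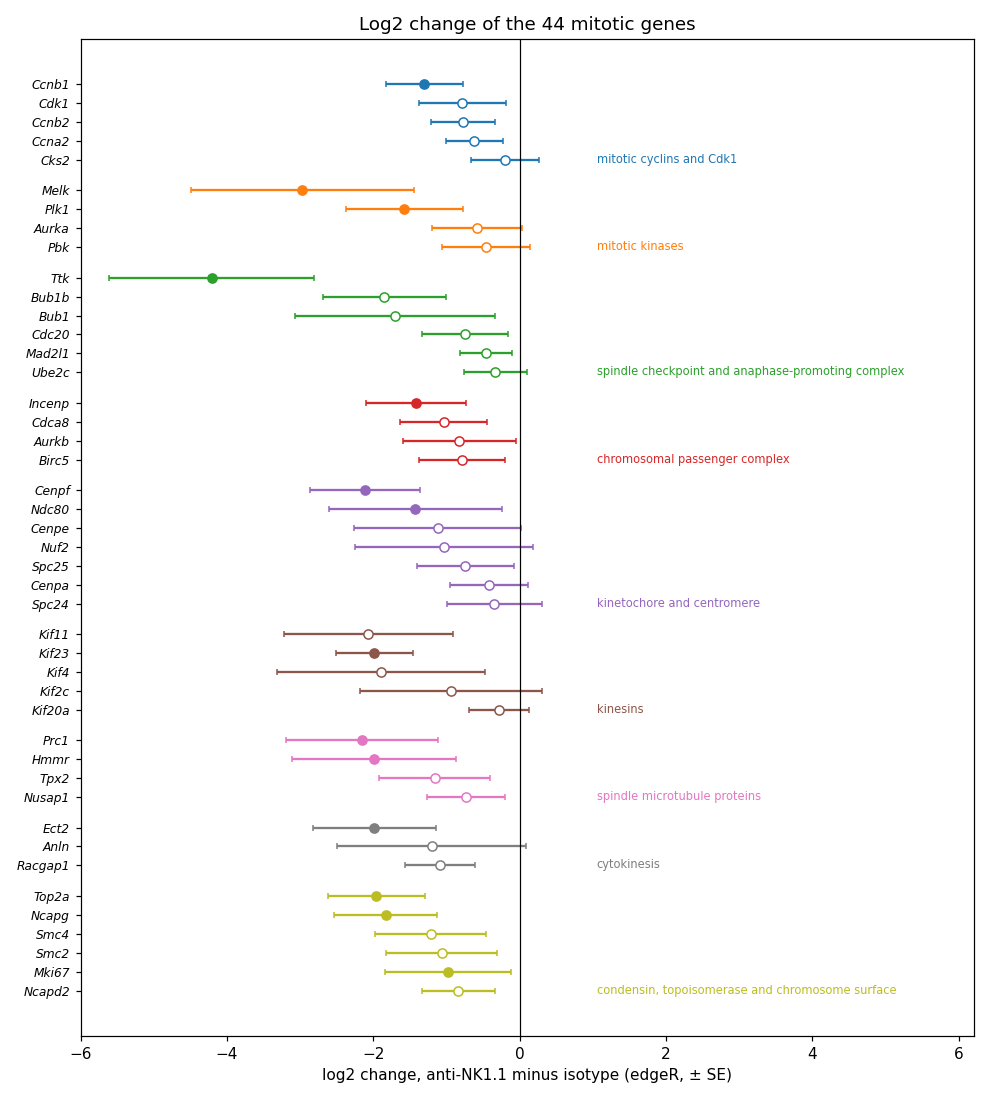
Log2 change of each of the 44 mitotic genes (x axis, edgeR estimate, anti-NK1.1 minus isotype, bars ± SE, 3 libraries per group), grouped and coloured by role. Filled points are the 14 genes whose groups do not overlap; every estimate lies left of 0, from -4.21 to -0.20, and none passed the threshold.

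The level of the whole set was even among the isotype libraries and spread widely among the anti-NK1.1 libraries. Summed over the 44 genes it was 975, 871 and 880 CPM with isotype (libraries 1 to 3) and 216, 454 and 813 CPM with anti-NK1.1 (libraries 1 to 3). The mean was thus 908 ± 57.4 CPM with isotype against 494 ± 300.4 CPM with anti-NK1.1 (SD, 3 libraries per group), a ratio of 1.84. Every anti-NK1.1 library lay below the isotype range, but anti-NK1.1 3 by little and anti-NK1.1 1 by the most. For the median member, the highest library of a group was 1.80 times the lowest within isotype, and 5.70 times the lowest within anti-NK1.1 over the 38 members with no library at 0 there. Counts of 0 occurred for 5 members in anti-NK1.1 1 and for 1 member in anti-NK1.1 2, and for none in the isotype libraries.

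Per kilobase of the longest annotated transcript, the levels over all 6 libraries ran from 0.249 CPM per kb for Kif4, 0.258 for Mki67 and 0.306 for Cenpe to 19.8 for Ube2c, 23.8 for Ccnb2 and 42.6 for Cks2. The highest levels were those of short transcripts of the cyclin-kinase complexes and the anaphase-promoting complex. Mki67 (10061 nt) and Cenpe (7910 nt) have very long transcripts, but the lowest member, Kif4, has one of 4983 nt. Mad2l1, at 7557 nt, had 3.48 CPM per kb. Among all tested genes the members held percentiles from 6.32 to 89.1 on this scale.

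**Figure D2:**
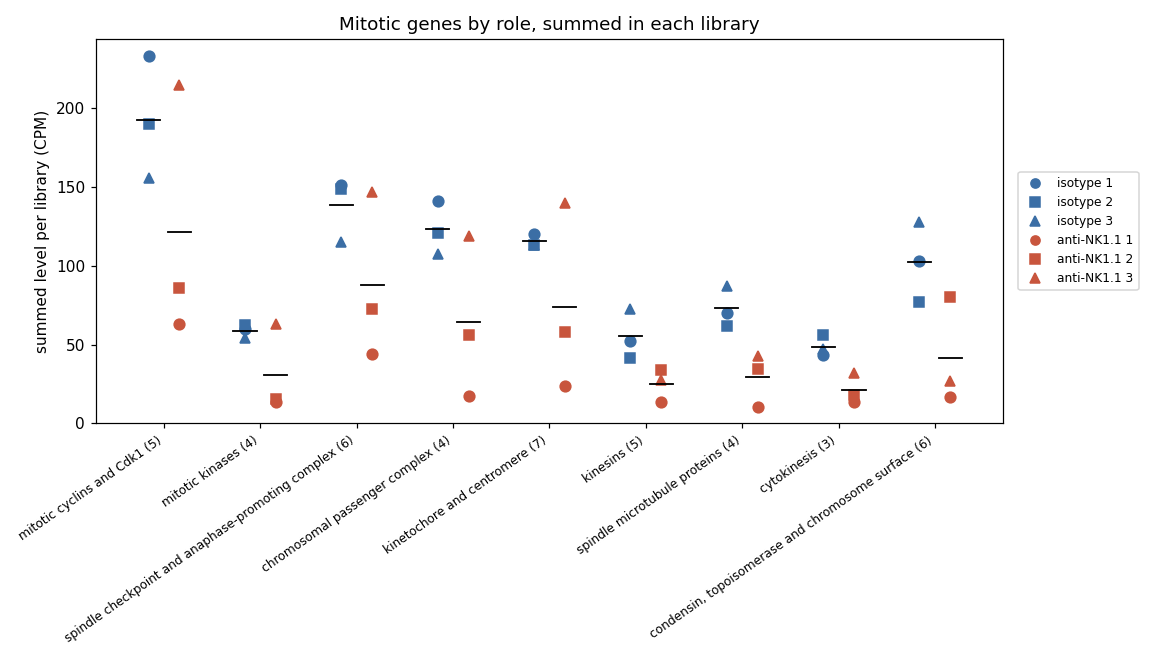
Summed level (y axis, CPM) of the mitotic genes of each role (x axis, number of genes in brackets) in each of the 6 libraries; bars mark the group means. Kinesins, spindle microtubule proteins and cytokinesis genes do not overlap between groups, while anti-NK1.1 3 reaches or passes the isotype range in the other roles apart from the condensin role, where anti-NK1.1 2 does.

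Cdk1 is the kinase that drives entry into mitosis, and cyclins A and B activate it. Cdk1 (chromosome 10, 69335146 to 69352938, GRCm38) had 77.0, 41.9 and 32 CPM with isotype (libraries 1 to 3) and 10.7, 18 and 59.1 CPM with anti-NK1.1 (libraries 1 to 3). The groups overlapped because anti-NK1.1 3 lay above isotype 2 and 3, and the log2 change was -0.78 ± 0.60 (SE). Ccna2, cyclin A of replication and early mitosis, had 45.5, 50.7 and 43.9 CPM against 15.5, 28.2 and 47.5 CPM, a log2 change of -0.62 ± 0.39. Here too the anti-NK1.1 3 library was within the isotype range and the other two were below it. Ccnb2, a cyclin B, behaved alike with 52.8, 44.1 and 41.2 CPM against 17.2, 16.1 and 47.5 CPM (log2 change -0.77 ± 0.43). Ccnb1, the other mitotic cyclin B, had 18.3, 19.9 and 16.5 CPM against 3.31, 6.28 and 12.6 CPM. It was the member of this role whose groups did not overlap, with a log2 change of -1.30 ± 0.53 (adjusted p = 0.729). Cks2, a small subunit that docks Cdk1 to its substrates, had 39.3, 33.5 and 21.8 CPM against 16.5, 17.4 and 48.2 CPM, so that its highest library was an anti-NK1.1 library.

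The mitotic kinases act at centrosomes, spindles and the midzone. Pbk, a kinase of mitotic cells, had 23.0, 18.5 and 11.2 CPM with isotype and 4.55, 9.40 and 24.5 CPM with anti-NK1.1, a log2 change of -0.46 ± 0.61. Aurka, the kinase of centrosome maturation, had 12.6, 15.1 and 19.8 CPM against 7.75, 3.50 and 20.5 CPM, a log2 change of -0.58 ± 0.61. For both genes the highest of all 6 libraries was anti-NK1.1 3, and the other anti-NK1.1 libraries were below the isotype range. Plk1, the polo-like kinase required at several steps of mitosis, had 18.3, 22.8 and 16.9 CPM against 1.35, 2.54 and 15.6 CPM. Its groups did not overlap, by a narrow margin at anti-NK1.1 3 (log2 change -1.57 ± 0.80, adjusted p = 0.743). Melk, a kinase of dividing and progenitor cells, had an even isotype level of 6, 5.83 and 6.22 CPM and 0.0752, 0 and 2.23 CPM with anti-NK1.1, from 2, 0 and 56 counts.

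The spindle checkpoint holds cells before anaphase until every kinetochore is attached, and Cdc20 and Ube2c then act with the anaphase-promoting complex to destroy cyclin B. Ube2c, the ubiquitin-conjugating enzyme of that complex, had 49.0, 58.8 and 37.1 CPM with isotype and 20.9, 27.7 and 66.5 CPM with anti-NK1.1 (log2 change -0.33 ± 0.43). Cdc20, its activator, had 40.0, 45.3 and 23.5 CPM against 7.37, 14.3 and 43.3 CPM (log2 change -0.74 ± 0.59). Both were within or above the isotype range in anti-NK1.1 3 and below it in anti-NK1.1 1 and 2. The checkpoint protein BubR1, encoded by Bub1b, had another order of libraries, with 18.4, 7.60 and 15.8 CPM against 0.527, 7.74 and 3.31 CPM, so that anti-NK1.1 2 was at the level of isotype 2. Ttk, the kinase Mps1 that starts checkpoint signalling (chromosome 9, 83834689 to 83872389), had 126, 122 and 251 counts in isotype and 0, 5 and 15 counts in anti-NK1.1 libraries, which is 3.52, 3.78 and 6.56 CPM against 0, 0.146 and 0.598 CPM. Every anti-NK1.1 library was far below every isotype library, with a mean of 4.62 ± 1.69 CPM against 0.248 ± 0.312 CPM and a log2 change of -4.21 ± 1.40 (adjusted p = 0.727). Bub1 and Mad2l1, also of the checkpoint, had log2 changes of -1.71 ± 1.37 and -0.46 ± 0.36 with overlapping groups.

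The chromosomal passenger complex, made of the kinase Aurora B and its partners survivin, borealin and INCENP, corrects faulty attachments and then directs cytokinesis. Birc5, which encodes survivin, had 57.7, 51.4 and 34.6 CPM with isotype and 7.90, 20.1 and 54.9 CPM with anti-NK1.1, a log2 change of -0.79 ± 0.59. Cdca8, which encodes borealin, had 55.6, 27.5 and 31.4 CPM against 5.34, 15.5 and 34.8 CPM, a log2 change of -1.04 ± 0.60. In both, anti-NK1.1 1 was lowest and anti-NK1.1 3 lay inside the isotype range, while anti-NK1.1 2 was below it. Aurkb had 11.9, 25.4 and 24.1 CPM against 2.03, 6.66 and 26 CPM. Incenp, the scaffold of the complex, had a tight isotype level of 16.2, 16.5 and 17.7 CPM and 2.11, 13.6 and 3.11 CPM with anti-NK1.1. Its groups did not overlap (log2 change -1.42 ± 0.68, adjusted p = 0.743), and the anti-NK1.1 library with the highest level was replicate 2 where for the other 3 subunits it was replicate 3.

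Kinetochores join chromosomes to spindle microtubules: CENP-A marks the centromere, the NDC80 complex of Ndc80, Nuf2, Spc24 and Spc25 grips the microtubule, and CENP-E and CENP-F are large proteins of the outer layer. Cenpa had 46.3, 40.3 and 39.8 CPM with isotype and 13.8, 17.1 and 63.5 CPM with anti-NK1.1 (log2 change -0.42 ± 0.53). Spc25 had 26.3, 21.4 and 28.1 CPM against 3.08, 11.7 and 30.5 CPM (log2 change -0.75 ± 0.66). In both, anti-NK1.1 3 was the highest library of all. Within the NDC80 complex the libraries ranked differently by subunit. Spc24 had 34.4 CPM in anti-NK1.1 3, above its isotype values of 15.0, 28.7 and 18.5 CPM. Ndc80 had 7.14, 5.86 and 6.66 CPM with isotype and 0.0376, 5.84 and 1.40 CPM with anti-NK1.1, so that replicate 2 nearly met the isotype range and replicates 1 and 3 did not. Nuf2 had no count in anti-NK1.1 1 and 8.35 and 8.77 CPM in the other two, beside 16.4, 9.92 and 8.70 CPM in isotype. Cenpf (chromosome 1, 189640606 to 189688086), the longest transcript of the set at 11130 nt, had 7.48, 4.50 and 5.20 CPM against 1.39, 1.69 and 0.877 CPM. All anti-NK1.1 libraries were below all isotype libraries and close to each other, with a mean of 5.72 ± 1.56 CPM against 1.32 ± 0.413 CPM and a log2 change of -2.11 ± 0.75 (adjusted p = 0.727). Cenpe had 1.31, 2.60 and 6.04 CPM against 0.602, 3.59 and 0.359 CPM, with overlapping groups.

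Mitotic kinesins push spindle poles apart, move chromosomes and build the midzone where the cell divides. Kif23, the MKLP1 subunit of the centralspindlin complex (chromosome 9, 61915905 to 61946774), had the smallest p of the 44 genes (unadjusted p = 0.00389, adjusted p = 0.727). It had 20.1, 9.83 and 12.1 CPM with isotype and 2.63, 3.71 and 4.22 CPM with anti-NK1.1. The anti-NK1.1 libraries were all low and alike, with a mean of 3.52 ± 0.812 CPM against 14.0 ± 5.38 CPM and a log2 change of -1.99 ± 0.52. Kif20a, a kinesin of the same midzone, had 11.1, 14.7 and 20 CPM against 10.7, 14.7 and 12.3 CPM, a log2 change of -0.28 ± 0.41 with overlapping groups. Kif11, the motor that separates the spindle poles, had 15.1, 6.23 and 22.8 CPM against 0.0376, 7.65 and 2.79 CPM. Its isotype level itself varied widely, and the log2 change was -2.07 ± 1.16. Kif2c, a microtubule depolymerase of the centromere, had no count in anti-NK1.1 1 and 7.80 and 7.05 CPM in the other two, beside 5.69, 9.55 and 13.3 CPM. Kif4, a chromosome-bound kinesin, was below 5 CPM in every library.

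The spindle microtubule proteins bundle and nucleate microtubules. Nusap1 had 11.9, 25.6 and 32.7 CPM with isotype and 8.88, 9.37 and 23.9 CPM with anti-NK1.1, a log2 change of -0.74 ± 0.53 with overlap at anti-NK1.1 3. Prc1, which crosslinks the antiparallel microtubules of the midzone, had 27.2, 17.3 and 26.3 CPM against 0.0752, 5.96 and 9.88 CPM. Its groups did not overlap, with a log2 change of -2.15 ± 1.04 (adjusted p = 0.743). Hmmr, a spindle pole protein, also did not overlap, with 11.5, 4.68 and 9.46 CPM against 0.0376, 3.97 and 2.39 CPM. Tpx2, the activator of Aurora A, had 19.5, 13.9 and 18.7 CPM against 1.09, 15.4 and 6.74 CPM, with anti-NK1.1 2 inside the isotype range. The sum over the 4 genes of this role had a mean of 72.9 ± 13.1 CPM against 29.3 ± 17.1 CPM and did not overlap between groups.

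Cytokinesis cleaves the cell once chromosomes have separated. Racgap1, the partner of Kif23 in centralspindlin, had 28.1, 42.1 and 33.3 CPM with isotype and 9.97, 9.37 and 29.3 CPM with anti-NK1.1, a log2 change of -1.09 ± 0.48. It overlapped at anti-NK1.1 3, while Kif23 did not. Ect2, the exchange factor that activates RhoA at the cleavage site, had 7.70, 7.53 and 7.60 CPM against 3.61, 1.78 and 0.359 CPM. The isotype libraries agreed closely and all anti-NK1.1 libraries lay below them, a log2 change of -1.99 ± 0.84 (adjusted p = 0.743). Anln, the contractile ring protein anillin, had 7.5, 6.33 and 6.11 CPM against 0, 6.57 and 2.07 CPM. In this case anti-NK1.1 2 was level with isotype.

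Condensin compacts chromosomes, topoisomerase II alpha untangles them and Ki-67 coats their surface. Smc4, an ATPase of condensin, had 48.5, 14.7 and 31.0 CPM with isotype and 4.06, 30.9 and 5.50 CPM with anti-NK1.1, a log2 change of -1.22 ± 0.76. Top2a (chromosome 11, 98992943 to 99024189) had 17.9, 18.1 and 39.9 CPM against 2.75, 13.2 and 3.51 CPM. Its groups did not overlap, with a mean of 25.3 ± 12.7 CPM against 6.49 ± 5.84 CPM and a log2 change of -1.96 ± 0.66 (adjusted p = 0.727). Ncapg, a subunit specific to condensin I, had 8.98, 15.1 and 6.92 CPM against 1.02, 2.75 and 4.94 CPM, a log2 change of -1.83 ± 0.71 without overlap (adjusted p = 0.727). Mki67, the gene of the proliferation marker Ki-67, was low throughout, with 3.46, 3.78 and 3.08 CPM against 0.865, 2.66 and 1.71 CPM. Its groups did not overlap, with a log2 change of -0.98 ± 0.86. Smc2 and Ncapd2, also of condensin, had log2 changes of -1.07 ± 0.75 and -0.84 ± 0.50 with overlap at anti-NK1.1 2. In Smc2, Smc4, Ncapd2 and Top2a the highest anti-NK1.1 library was replicate 2, the reverse of the cyclins and Cdk1, where it was replicate 3.

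The anti-NK1.1 libraries thus differed from isotype in different members. In anti-NK1.1 1 all 44 genes lay below the lowest isotype library (32.7% of tested genes did so in that library), and the median member was 2.45 below the isotype mean on the log2 CPM scale. In anti-NK1.1 2 there were 33 members below the isotype range (22.5% of tested genes), none above it, and a median of -1.03. In anti-NK1.1 3 there were 22 members below the range (30.5% of tested genes) and 8 above it (30.6% of tested genes), namely Aurka, Aurkb, Cenpa, Cks2, Pbk, Spc24, Spc25 and Ube2c, with a median of -0.44.

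Which members were low in anti-NK1.1 2 and 3 went with transcript length. Split at 3656 nt, the 22 longer members had a median of -1.49 and the 22 shorter members of 0.04 in anti-NK1.1 3, relative to the isotype mean on the log2 CPM scale. In anti-NK1.1 2 the order was the other way, with -0.68 for the longer and -1.22 for the shorter members, and in anti-NK1.1 1 both lay low, at -2.31 and -2.50. Over all tested genes, Spearman's rho of a gene's deviation from its mean over libraries with transcript length was -0.30 in anti-NK1.1 3, -0.15 in anti-NK1.1 1 and 0.24 in anti-NK1.1 2, beside values from 0.00 to 0.32 in isotype. Over the members the same rho was -0.59, 0.02 and 0.37, in the same order of libraries, near 0 in anti-NK1.1 1 and of the same sign as over all genes in the other two. Across the 44 members the log2 change of the groups had a rho of -0.38 with length, and across 14391 tested genes -0.21. These are descriptions over genes that share the same libraries. After each library was corrected for transcript length and GC content, all 44 members still had a log2 change below 0 (53.5% of tested genes), their median was -1.08 and 0 were called (0% of tested genes). Groups did not overlap for 16 members (9.6% of tested genes), and 9 had an unadjusted p under 0.05 (5.19%).

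**Figure D3:**
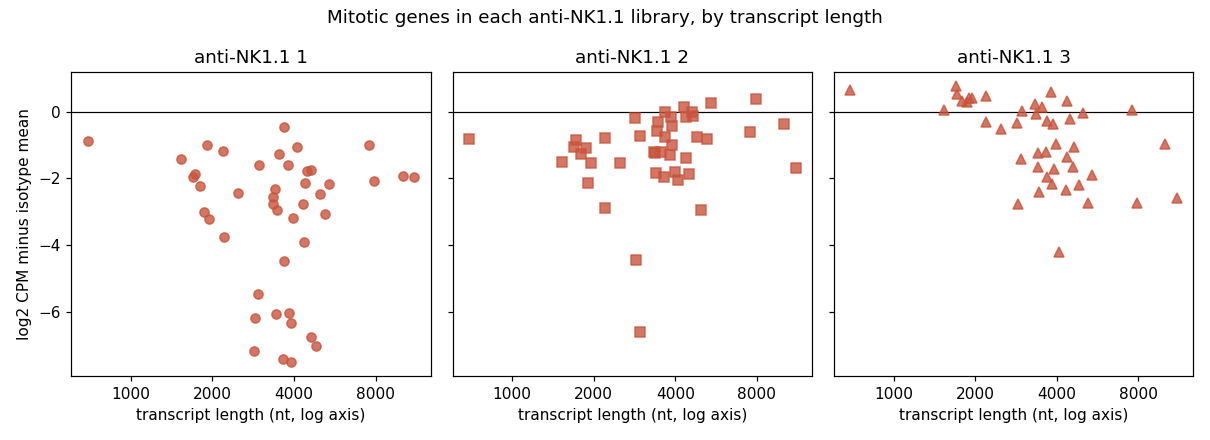
Log2 CPM of each mitotic gene minus its isotype mean (y axis) against transcript length in nt (x axis, log scale), one panel for each anti-NK1.1 library. In anti-NK1.1 3 the 22 shorter members centre on 0.04 and the 22 longer ones on -1.49, while all 44 members lie below 0 in anti-NK1.1 1.

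Genes of division outside the 44 were read by list, and the edgeR test called none of them. Of 40 further genes of spindle, cohesion and division 35 had a log2 change below 0, with a median of -1.23 and 0 called. The 3 with the smallest p were Troap, a spindle protein (-5.58 ± 1.37), Arhgap11a, a regulator of RhoA (-1.90 ± 0.59), and the kinesin Kif20b (-3.44 ± 1.26). Troap had 6.67, 3.75 and 4.42 CPM with isotype and 0.226, 0 and 0.0797 CPM with anti-NK1.1, and DESeq2 called it lower (adjusted p = 0.00116) where edgeR did not (adjusted p = 0.714). Of 33 tested further kinetochore genes 24 were below 0, with a median of -0.27 and 0 called, led by Cenpu (-1.73 ± 0.61), Cenpo (-1.05 ± 0.42) and Zw10 (-1.35 ± 0.62). Of 47 tested DNA replication genes 43 were below 0, with a median of -0.50 and 0 called. They included the replicative helicase subunit Mcm7 (-0.96 ± 0.32), the repressor E2f8 (-1.57 ± 0.61) and the checkpoint mediator Clspn (-3.07 ± 1.35). Cyclins and kinases of the first gap phase lay near 0, with 5 of 8 below it and a median of -0.02, led by Ccnd2 (0.25 ± 0.33), Ccnc (-0.23 ± 0.35) and Ccnd1 (-0.17 ± 0.27). Cell cycle inhibitors and brakes had 12 of 19 below 0 and a median of -0.09, with values of -0.83 ± 0.37 for Rb1, -0.81 ± 0.41 for Ccng1 and 0.67 ± 0.38 for Cdkn1a, which encodes the inhibitor p21. The differences between these lists were not tested.

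Summed transcripts of neutrophil precursors ranked the anti-NK1.1 libraries as the sum of the mitotic genes did. Other lists had this order too. Cyclins and kinases of the first gap phase summed to 523, 552 and 835 CPM in anti-NK1.1 1 to 3. Cell cycle inhibitors summed to 2093, 2142 and 3532 CPM there. The 22 longer mitotic genes did not share this order. Their median relative to the isotype mean was -0.68 in anti-NK1.1 2 and -1.49 in anti-NK1.1 3, on the log2 CPM scale. The 7 azurophil granule and precursor genes found summed to 2180, 2552 and 1834 CPM with isotype and 79.3, 629 and 1603 CPM with anti-NK1.1, lowest in replicate 1 and highest in replicate 3. Among the isotype libraries the order differed, since isotype 2 had the highest precursor sum and the lowest mitotic sum. Mpo, the myeloperoxidase of these granules, had 850, 1155 and 944 CPM against 11.8, 237 and 487 CPM, and Elane, neutrophil elastase, 667, 693 and 417 CPM against 16.7, 185 and 455 CPM. Ms4a3, a marker of granulocyte and monocyte progenitors, had 100.3, 95.3 and 70.6 CPM against 3.27, 33.0 and 80.0 CPM. All 7 had a log2 change below 0, with a median of -1.42 and 0 called, and none was at 0 in any library. Their transcripts are short, with a median length of 1170 nt. After the length and GC correction all 7 stayed below 0, with a median of -1.905. The part of transcript length in the order of the libraries was not tested.

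Markers of later neutrophils summed to 100700, 78610 and 73120 CPM with isotype and 32530, 32760 and 141100 CPM with anti-NK1.1. Monocyte markers had 5155, 4532 and 4669 CPM against 1522, 1903 and 6093 CPM. In both sums anti-NK1.1 3 was the highest of all libraries and anti-NK1.1 1 and 2 were below the isotype range. S100a8 and S100a9 made up most of the late neutrophil sum, with 48930 and 40780 CPM in anti-NK1.1 3. Ltf (2775 CPM) and Mmp8 (860.5 CPM) in that library lay inside the isotype range. Only Cxcr2 of the 10 genes did not overlap, and it was lower (83.9 to 145 CPM against 41.1 to 68.9 CPM; 7.59% of tested genes). The monocyte sum was mostly Chil3, with 4085 CPM of it in anti-NK1.1 3, and its 8 genes did not go together. Ccr2 (84.6 to 162 CPM against 18.9 to 63.8 CPM), Fn1 (60.0 to 151 CPM against 15.6 to 20.2 CPM) and F13a1 (133 to 260 CPM against 24.5 to 108 CPM) were below every isotype library in all anti-NK1.1 libraries. DESeq2 called Ccr2 (adjusted p = 0.0253) and Fn1 (adjusted p = 4.68e-06) lower, and edgeR did not (adjusted p = 0.714 and 0.366). The microglial markers had 31330, 33060 and 35840 CPM against 30930, 35980 and 27310 CPM and thus varied far less. NK cell markers summed to 125, 133 and 88.7 CPM with isotype and 38.3, 44.1 and 76.8 CPM with anti-NK1.1, again lowest in anti-NK1.1 1 and without overlap. Neuronal markers went the other way, with 39.6 to 144 CPM against 183 to 570 CPM. Oligodendrocyte markers did so too, with 291 to 399 CPM against 747 to 876 CPM. Most of the neuronal sum with anti-NK1.1 was Meg3 (471, 144 and 253 CPM), and most of the oligodendrocyte sum there was Mbp. All 7 neuronal genes had a log2 change above 0, and 2 did not overlap between groups (7.73% of tested genes). T cell markers had 11.7 to 25.3 CPM against 32.4 to 37.7 CPM and oligodendrocyte precursor markers 5.04 to 8.03 CPM against 10.4 to 21.8 CPM. Both sums were higher with anti-NK1.1 without overlap. The T cell sums rested on 418 to 1108 counts per library and the oligodendrocyte precursor sums on 193 to 748. Of the 6 oligodendrocyte precursor genes 4 were tested, and all 4 had a log2 change above 0. In anti-NK1.1 3, however, Pdgfra (1.475 CPM) lay below every isotype library. Of the 7 T cell genes 6 had a log2 change above 0 and 1, Lck, was lower (-1.38 ± 1.17). Sums that overlapped between groups were those of B cells (55.7 to 98.5 CPM against 95.7 to 136 CPM), astrocytes (109 to 164 CPM against 92.0 to 175 CPM), endothelial cells (22.9 to 49.5 CPM against 28.4 to 117 CPM) and erythroid cells (13 to 41.7 CPM against 5.57 to 45.1 CPM), with 4 globin genes at 0 counts in every library. The part of these cells in the level of the mitotic genes was not tested.

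**Figure D4:**
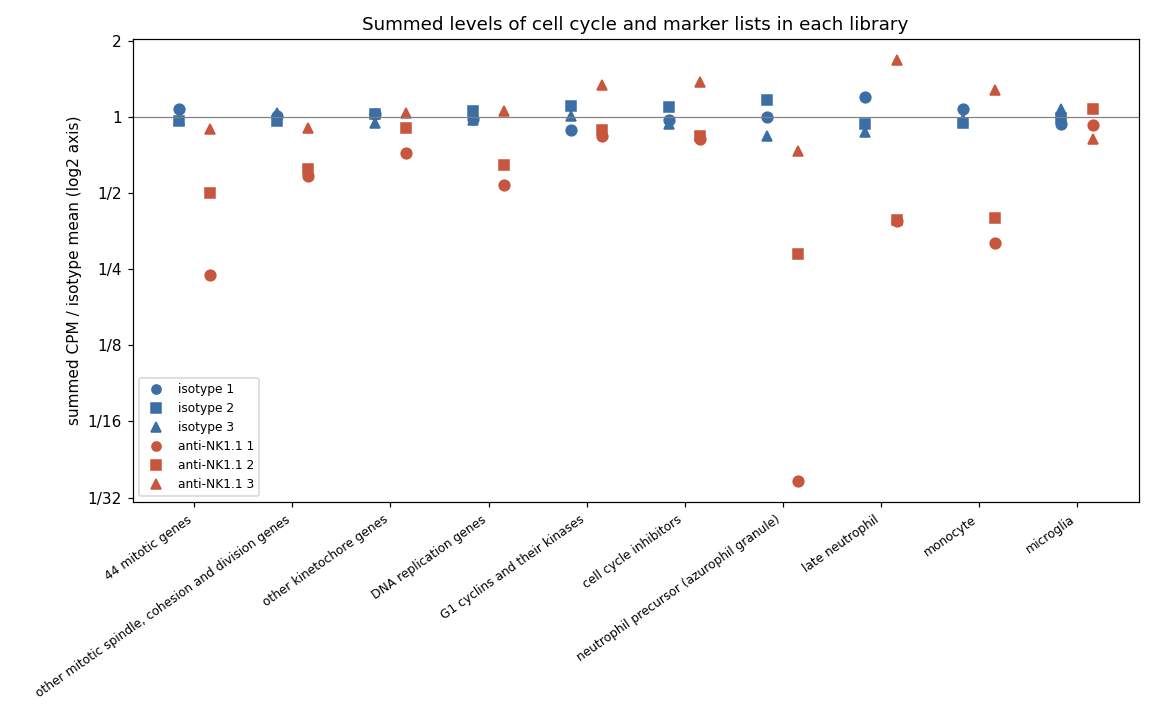
Summed CPM of each list in each library relative to its mean in the isotype libraries (y axis, log2 scale), for cell cycle lists and for markers of cells that the sort could hold. Among the anti-NK1.1 libraries the 9 lists of cell cycle genes and of neutrophil and monocyte markers rank 1, then 2, then 3, from lowest to highest, while the microglial markers stay near 1.

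The lower level of the median mitotic gene leaned on anti-NK1.1 1: without it the median log2 change was -0.65, with 42 of 44 members below 0. The groups of 14 members did not overlap without anti-NK1.1 1 (9.8% of tested genes), of 22 without anti-NK1.1 2 (19.8%) and of 33 without anti-NK1.1 3 (12.5%). Without isotype 1, 2 or 3 these were 16 members (12.3%), 20 members (12.4%) and 16 members (10.9%). Without anti-NK1.1 2 the edgeR test called 129 genes, 0.861% of those tested and 0.781% lower, with 0 members among them; 43 members lay below 0 (50.3% of genes), and the smallest adjusted p among them was 0.0527, for Top2a. With anti-NK1.1 2 alone against isotype, 42 members lay below 0 (51.1% of genes) and 32 below every isotype library (20.6%). With 3 libraries per group, the smallest p of an exact permutation test on a single gene is 0.1.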

How the data were processed

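RNA was sequenced from 6 libraries of sorted microglia, 3 per group. Per the labels' protocols, cDNA was made with SMART-seq v4 and Nextera XT, which do not mark strand and add no molecular identifiers, and read as 75 bp single ends. STAR 2.5.3a, Cufflinks 2.0, DESeq2 1.1 and the build mm10 are listed, per the submitters' processing notes. How reads were counted, with which annotation and strand setting, is not given in the sources used here. Although called normalized, the deposited table holds whole-number counts whose totals differ between libraries. The 26 rows with a calendar date in place of the symbol and a value, and the 2 rows of reads in no feature (53.3% to 57.4% of reads) or ambiguous reads, were left out.

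Genes were filtered with filterByExpr (14520 of 24956; all 44 members passed), scaled by TMM and given to the two-sided quasi-likelihood test of edgeR (4.0.16, R 4.3.3) with a single group term. P-values were adjusted by Benjamini-Hochberg over every tested gene, with 0.05 as the threshold. The SE is the absolute log2 change divided by the square root of F. Median and length summaries by library use log2 CPM with a prior count of 2. The scripts were tested on simulated data, where recovery of set changes was required only at a low dispersion. The common coefficient of variation between libraries fitted here was 0.64, and recovery at that spread is not given. DESeq2 1.42.0 and limma 3.58.1 (voom) were alternatives. Transcript length and GC content are those of the longest GENCODE transcript on GRCm38, matched by symbol for 99.1% of tested genes and all members. Exons of 10 members (Ccna2, Cdc20, Cdca8, Kif20a, Kif4, Ncapd2, Ncapg, Nusap1, Prc1 and Ube2c) overlap those of another gene in the table, so their values are uncertain.

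The members, lists and tests were chosen with earlier results of these data known. Every member may be named, with values in full for the 2 of each role with the highest mean CPM and the 5 of smallest p; from each other list up to 3 genes of smallest p are named. Others were chosen after their values were seen. Same-numbered libraries did not deviate together (correlations from 0.00 to 0.05), so the numbers were not treated as pairs. No 2 libraries of a group agreed within sampling noise. Precision is limited by the number of libraries and by counts, and counting error is the only error that the floor of 3 counts covers.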

Additional observations from a re-analysis of the deposited data

How the results depend on the processing

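The direction of the 44 mitotic genes held in nearly every setting, and their calls and non-overlap depended on the setting. Leaving out 1 library at a time gave 14 to 33 members whose groups did not overlap (9.8% to 19.8% of all tested genes), 42 to 44 members below 0, a median log2 change from -1.50 to -0.65, and 0 to 129 genes called over all genes. Over the same settings the median of the further kinetochore genes ran from -0.85 to -0.054, Cks2 from -0.90 to 0.056 and Spc24 from -1.50 to 0.079. Without anti-NK1.1 1 and 3 together, 32 members did not overlap (20.6% of tested genes), and Cenpe (0.12) and Smc2 (0.023) turned above 0. With a minimum mean CPM of 5, 34 members were tested and 8 did not overlap. The share of all genes that did not overlap at this minimum is not given, so the 8 cannot be compared with it. The median of the further spindle and division genes at this minimum was -0.57, with fewer genes tested. DESeq2 called 83 genes, 1 of them a further spindle gene, and with its own filtering 134 genes, 2 of them members and 2 further spindle genes. With the 150-base promoter window, both motifs together were in 50% of mitotic promoters and the E2F form in 0%. With the replicate number as a block, the median was -1.49 and 0 members were called. The block does not change CPM, so 14 members again did not overlap (7.59% of tested genes). The numbers do not pair the libraries, and the block with the length and GC correction gave a median of -1.37. The cause of these shifts was not tested. Members with counts of 0 to 5 in an anti-NK1.1 library, such as Melk and Ttk, were measured there with little precision.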
